A study of Mus musculus with 4 samples.

Results

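Tmem159 is a 5-exon gene on mouse chromosome 7 whose protein takes part in building lipid droplets. Its rows were every known SNP between the C57BL/6J (B) and DBA/2J (D) strains that the deposited allele counts list under this gene name. There were 39 such SNPs of 305528 listed in all, 7 of them exonic and 32 intronic, and Tmem159 was 1 of 7992 genes with counted exonic SNPs, of which 7988 had reads and were tested. Reads covered 34 (BxD) and 31 (DxB) of the 39 SNPs in the female pools, and 33 (BxD) and 31 (DxB) in the male pools.

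The study sequenced polyadenylated RNA from the gonadal fat pad of chow-fed F1 mice of the reciprocal crosses between B and D, and asked which genes are expressed unequally from the B and D alleles of the same animals. Each of the 4 libraries was a single pool of RNA, from 3 BxD females, 2 DxB females, 3 BxD males and 3 DxB males, so the spread between animals within a pool was not measured. The labels give an age of 8 weeks, while the study's methods give an older one. Every animal carried both alleles, no parental strain was included, and each pool gave a B and a D allele count, which makes 8 allele libraries.

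Cross and sex differ between label and deposited file name for 2 of the 4 samples: the sample labelled DxB female carries a file named for BxD males, and the sample labelled BxD male carries a file named for DxB females. Pools are called here by the file name. The B allele took 90.3% of reads at X-linked SNPs in the pool named BxD male, 48.5% among DxB males, 68.3% among BxD females and 70.0% in the pool named DxB female. The comparison of the D with the B allele over all 4 pools does not use these identities, and each comparison that does is also given by the labels.

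Lipid droplets are the organelles in which cells keep triglyceride, and in a white adipocyte a single droplet fills most of the cell. They form at the endoplasmic reticulum, where neutral lipid collects between the leaflets of the membrane and buds towards the cytosol. The Tmem159 protein, also called promethin or lipid droplet assembly factor 1, is a membrane protein that joins seipin, the product of Bscl2, at the sites where droplets form, and later moves to the droplet surface.

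In the mm9 build, the GENCODE M1 annotation places Tmem159 (ENSMUSG00000030917.6) on the plus strand of chromosome 7, from 127245890 to 127264506. Exon 4 runs from 127259734 to 127259872 and exon 5 from 127263688 to 127264500, with intron 4 between them. No counted SNP lay in exons 1 to 3. The 2 SNPs of exon 4 fall in the coding sequence, at the last base of codon 114 (TCG in B and TCA in D, both serine) and of codon 123 (GTG in B and GTA in D, both valine) of a protein of 161 residues. The 5 SNPs of exon 5 all fall in the 3′ untranslated region. By this annotation nearly all intronic reads lay in intron 4.

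The sites that carry the allele counts are shown as the B sequence of the reference, 5′ to 3′ on the plus strand of mm9, with the SNP bases in capitals. Each change is written with the B base first, then its position from 1 at the 5′ end of the printed run, then the D base. The exon 4 run holds both coding SNPs, which together gave most of the exonic reads. The 2 single intron 4 runs hold the SNPs with the most reads among those with no other listed SNP less than 50 bp away, and the last run holds the start of a group of 6 SNPs in the same intron.
Exon 4, chr7:127259809-127259838, G2A and G29A: cGgggatagccatgatgtcctatgtggtGg
Intron 4, chr7:127261696-127261724, G15A: ctttactttctcaaGggctattgaagtgg
Intron 4, chr7:127263501-127263529, G15A: ctcattcttccccaGacacatcattagcc
Intron 4 group, chr7:127262853-127262882, T7C, T8C and T24C: catttgTTccctgtcacactgggTctccca

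The exonic libraries held 3353668 to 4254813 counted allele reads a pool, and the B allele took 1.13 to 1.19 reads for each D read over all genes. Adipocyte markers with a counted SNP (Cidec, Lep and Car3, 3 of the 9 listed) summed to a CPM of 80996 to 106462 (allele reads scaled to the counted reads of the pool). The other lists could be read at only 1 or 2 genes each: macrophage markers summed to a CPM of 282 to 553, mesenchymal markers to 2200 to 3364, endothelial to 36.4 to 51.9, lymphocyte to 1.19 to 3.53, epididymal to 0 to 5.37 and skeletal muscle to 0.298 to 20.4.

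More Tmem159 mRNA came from the B allele than from the D allele in each of the 4 pools. Over the 7 exonic SNPs the B allele gave 2109 reads and the D allele 1215, so the D share was 36.6% (95% Wilson interval 34.9 to 38.2). In edgeR the fitted D to B ratio was -0.66 on the log2 scale, a B level 1.58-fold that of D. The difference passed the test, and B was the higher allele in both sexes and both crosses.

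The BxD female pool held 641 B reads and 366 D reads, a D share of 36.3%. The DxB female pool held 472 B reads and 250 D reads, a D share of 34.6%. The BxD male pool held 607 B reads and 341 D reads, a D share of 36.0%. These 3 pools lay within 2 percentage points of each other. In the DxB male pool there were 389 B reads and 258 D reads, a D share of 39.9%, the highest of the 4. Even the DxB male pool stayed well under an equal share, and the lowest B count over the pools, 389, was above the highest D count, 366. The mean D share was 36.7% ± 2.24 (SD, n = 4 pools). The intervals here cover counting error only, and they treat every read as independent. Mates of a pair were counted as single reads, PCR copies were not removed by any step described, and close SNPs share reads. The intervals may therefore be too narrow even for counting error.

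**Figure D1:**
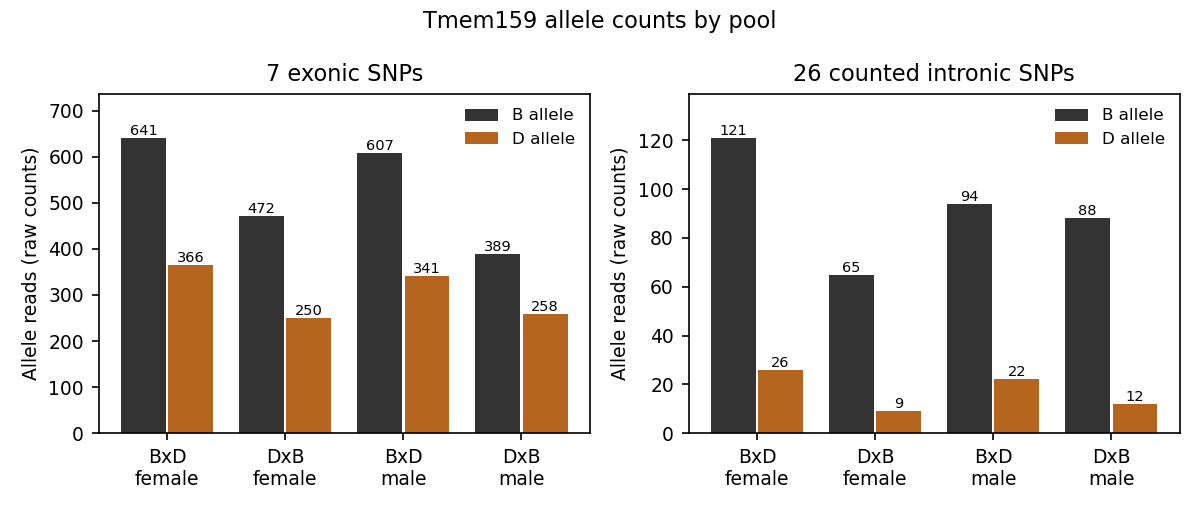
Raw allele reads of Tmem159 in each pool, summed over the 7 exonic SNPs (left) and over the 26 counted intronic SNPs (right), with black bars for the B allele and brown bars for the D allele. In the exonic panel D bars of 250 to 366 reads stand beside B bars of 389 to 641, and in the intronic panel D bars of 9 to 26 stand beside B bars of 65 to 121.

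For each gene, B and D counts of exonic SNPs were compared over the 8 allele libraries after TMM scaling, which sets the general excess of B reads aside. The log2 D to B ratio of Tmem159 was -0.66 with a standard error of 0.13, and its adjusted p in edgeR was 0.0035. The test called 17.7% of genes, 12.9% with B higher, so a strain difference in itself was common. Among the called genes Tmem159 ranked 1201 by size, in the lower part of the list. With the pool as a block the ratio was also -0.66, the standard error fell to 0.066 and the adjusted p in edgeR was 0.0012, with 2175 genes called in place of 1414.

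The parent that passed on the allele made no detectable difference. The maternal to paternal log2 ratio was 0.09 with a standard error of 0.26, an interval of 2 standard errors from -0.44 to 0.61, and an adjusted p in edgeR of 1.0. This test called 0.0501% of genes, 4 in all. Strain was not in this fit, so the strain difference of the gene counts towards its standard error. With allele strain as a covariate the ratio was 0.04 with a standard error of 0.14, and it was not called. With cross and sex taken from the labels the ratio was 0.05. Leaving out a pool makes the numbers of B and D alleles unequal between maternal and paternal counts. Without a strain term the strain difference then enters the ratio. It was -0.13 without the BxD female pool and -0.14 without the BxD male pool. Without the DxB female pool it was 0.33, and without the DxB male pool 0.27. These signs do not show which pools differ by parent.

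Males and females leaned the same way. In the 2 male pools alone the log2 D to B ratio was -0.60, standard error 0.15, with an adjusted p in edgeR of 0.011, where 15.4% of genes were called. In the 2 female pools alone it was -0.73, standard error 0.21, with an adjusted p in edgeR of 0.065, just outside the threshold, where 11.1% of genes were called. With the pool as a block, a fit added after the data were seen, these calls changed places: the male ratio of -0.60 had an adjusted p in edgeR of 0.055, with 776 genes called in place of 1183, and the female ratio of -0.73 had an adjusted p in edgeR of 0.0018, with 1640 genes called in place of 849. The difference between the sexes itself was 0.15 (male minus female), standard error 0.27, with an interval of 2 standard errors from -0.39 to 0.68 and an adjusted p in edgeR of 1.0. That interaction test called 0% of genes, with 100 at an unadjusted p under 0.05 and 0 called by DESeq2. With the pool as a block, which compares alleles within pools, the sex difference was 0.16, standard error 0.12, and was not called. With sex taken from the labels the difference was 0.07, standard error 0.23, with an adjusted p in edgeR of 1.0 and 8 genes called, and the calls within a sex changed places: the male ratio was -0.63 with an adjusted p in edgeR of 0.072, and the female ratio was -0.69 with an adjusted p in edgeR of 0.032.

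The amount of Tmem159 RNA, both alleles together, was compared between pools by sex and by cross, and neither comparison passed the test. As CPM it was 219 in BxD and 180 in DxB females, and 232 in BxD and 200.1 in DxB males. The values of males and females overlapped, whereas both BxD pools lay above both DxB pools. Males differed from females by 0.11 on the log2 scale (standard error 0.18, adjusted p in edgeR 0.91), where 2.88% of genes were called. The DxB pools differed from the BxD pools by -0.25 (standard error 0.15, adjusted p in edgeR 0.94), where 0% of genes were called, with 299 at an unadjusted p under 0.05 and 4 called by DESeq2. By the labels these 2 comparisons exchange their values, so the sex difference becomes -0.25 and the cross difference 0.11. In a bulk sample fewer cells that express the gene and less RNA per cell cannot be told apart.

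Along the mRNA, both exons with SNPs had more B than D reads and both passed the test, while within exon 5 the last 2 SNPs together had equal reads from both alleles. Exon 4 had 1535 B reads and 859 D reads, a D share of 35.9%. Exon 5 had 574 B reads and 356 D reads, a D share of 38.3%. Tested exon by exon, exon 4 had a log2 D to B ratio of -0.72 (standard error 0.16, adjusted p in edgeR 0.0039) and exon 5 of -0.58 (standard error 0.18, adjusted p in edgeR 0.042), where 12.4% of exons were called.

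Exon 4 minus exon 5 came to -0.48 on the log2 scale in BxD females, 0.08 in DxB females, 0.07 in BxD males and -0.15 in DxB males. The signs were split between pools. The mean was -0.12 ± 0.26 (SD, n = 4), with a two-sided p of 0.62 in an exact sign permutation test, which for 4 pools has 16 sign patterns and cannot pass the threshold. Without the BxD female pool the mean was 0.0022, so the direction rested on that pool.

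At the first coding SNP of exon 4, 127259810, the D share was 37.3% in BxD females, 37.6% in DxB females, 38.5% in BxD males and 39.4% in DxB males. Over the pools this was 714 B reads to 440 D reads. At the second coding SNP, 127259837, the D share was 31.2%, 32.3%, 34.2% and 38.9% in the same order, from 821 B reads to 419 D reads. The D share was lower at the second SNP in all 4 pools. The 2 SNPs lie less than a read length apart and share reads, so they are not independent. Both were called, with log2 D to B ratios of -0.62 (standard error 0.18, adjusted p in edgeR 0.026) and -0.88 (standard error 0.19, adjusted p in edgeR 0.0021). Over all SNPs with 10 or more reads, 12.6% were called.

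The 3′ untranslated region held the other 5 exonic SNPs, in the order of the transcript at 127263989, 127264030, 127264118, 127264311 and 127264440. The first 3 together had 424 B reads and 206 D reads, a D share of 32.7%, with pools between 29.6% and 36.4%. The last 2 together had 150 B reads and 150 D reads, with pools between 39.1% and 59.4%. At 127264311 the D share was 51.2% in BxD females, 37.9% in DxB females, 41.5% in BxD males and 61.1% in DxB males, from 136 B reads and 125 D reads. The pools lay on both sides of an equal share there, and the log2 ratio of -0.03 (standard error 0.25, adjusted p in edgeR 0.98) was not called. The last SNP, 127264440, leaned towards D, with 14 B reads and 25 D reads, but its log2 ratio of 0.87 (standard error 0.53, adjusted p in edgeR 0.37) was not called. The SNPs at 127263989 and 127264030 were called and the one at 127264118 was not, with an adjusted p in edgeR of 0.058, or 0.024 with the pool as a block. Leaving out the last 2 SNPs moved the ratio of the gene from -0.66 to -0.74. The difference between the first 3 and last 2 SNPs was not tested, since they were grouped after their values were seen.

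**Figure D2:**
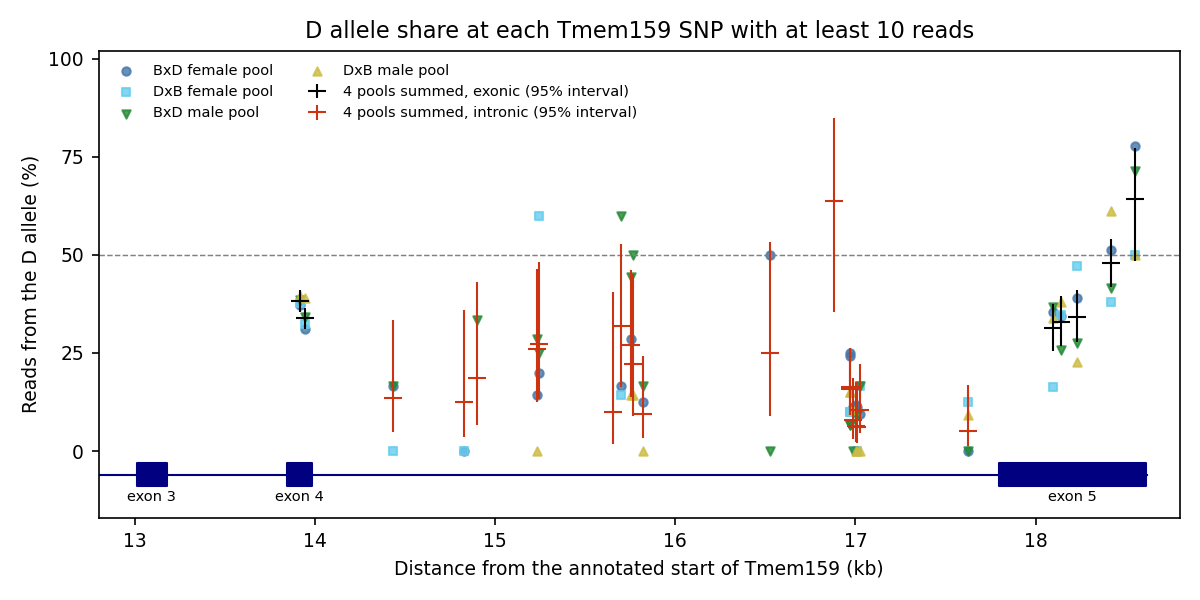
Share of reads from the D allele (y axis, percent) at each Tmem159 SNP with at least 10 reads, against distance from the annotated gene start (x axis, kb). Crosses give the 4 pools summed with 95% Wilson intervals, black for exonic and red for intronic SNPs, small symbols give pools with at least 5 reads at the SNP, blue boxes mark exons 3 to 5 and the dashed line marks an equal share. Exon 4 SNPs lie at 33.8% and 38.1%, most intron 4 SNPs lie lower, and the last 2 SNPs of exon 5 lie at 47.9% and 64.1%.

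The imbalance was larger in intronic than in exonic reads, in every pool. The 26 counted intronic SNPs gave 368 B reads and 69 D reads, a D share of 15.8% (95% Wilson interval 12.7 to 19.5) against 36.6% in the exons. Intron 4 gave 360 of the B reads and 68 of the D reads. Intronic reads can come from RNA that is not yet spliced or keeps the intron, but antisense reads cannot be told apart here. The source of these reads was not tested. They were uneven between introns, with 8 reads over 4 SNPs in intron 2 and 428 over 21 SNPs in intron 4. Intronic reads were also fewer: 74 to 147 a pool against 647 to 1007 exonic reads.

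The BxD female pool had 121 intronic B reads and 26 D reads, a D share of 17.7%. The DxB female pool had 65 B reads and 9 D reads, a D share of 12.2%. The BxD male pool had 94 B reads and 22 D reads, a D share of 19.0%, and the DxB male pool had 88 B reads and 12 D reads, a D share of 12.0%. The highest intronic D share, 19.0%, was below the lowest exonic one, 34.6%. The DxB male pool, which had the highest exonic D share, had the lowest intronic one.

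Exonic minus intronic, the log2 D to B ratio differed by 1.39 in BxD females, 1.87 in DxB females, 1.24 in BxD males and 2.23 in DxB males. All 4 pools had the same sign. The mean was 1.68 ± 0.45 (SD, n = 4), with a two-sided exact sign permutation p of 0.13, or 2 of the 16 sign patterns, the smallest that 4 pools allow. Within each pool Fisher's exact test covers counting error only and treats every read as independent. It gave p-values from 1.1e-08 in the DxB male pool to 0.00018 in the BxD male pool. The ratio of all intronic reads of a pool did not stand below that of its exonic reads in this way: over all genes the log2 D to B ratio was -0.18 to -0.25 in exonic and -0.19 to -0.23 in intronic reads.

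**Figure D3:**
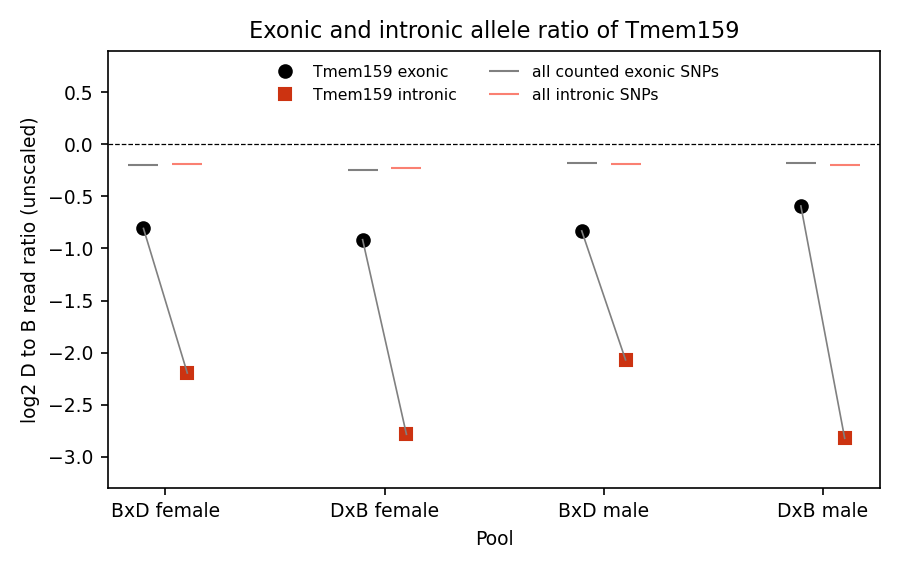
Log2 ratio of D to B reads (y axis, no library scaling, 0.5 added to the Tmem159 sums) in each pool for exonic (black circles) and intronic (red squares) SNPs of Tmem159, joined by a line, with short bars for all counted exonic (grey) and all intronic (pink) reads of the pool. The intronic point lies 1.24 to 2.23 below the exonic one, while the bars over all genes lie between -0.18 and -0.25.

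An edgeR test of the strain ratio between the 2 SNP classes was added after the data were seen and run over 6494 genes. Counts of each allele and class of a pool entered it as separate libraries, without pairing. The test put the difference of Tmem159 at 1.66 with a standard error of 0.29 and an adjusted p in edgeR of 4.8e-04. It called 9.78% of genes, 239 with relatively more D in exons and 396 with relatively more D in introns, and the median difference over all genes was -0.02. Among 2659 genes with at least 100 reads in each class, 51 (1.92%) had a larger difference in the same direction. With pool and class as a block the difference was 1.65, the standard error 0.19 and the adjusted p in edgeR 2.6e-05.

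Single intronic SNPs were thinly covered, with 74 reads at most. The best covered SNP with no listed neighbour less than 50 bp away, 127263515, had 37 B reads and 2 D reads, and its log2 D to B ratio of -3.84 (standard error 0.71) had an adjusted p in edgeR of 3.6e-04. The next such SNP, 127261710, had 29 B reads and 3 D reads, a ratio of -3.03 (standard error 0.72) and an adjusted p in edgeR of 0.005. Both sites lie in intron 4, and B was ahead of D at each of them in every pool. One intronic SNP with 10 or more reads went the other way: 127262769 had 4 B reads and 7 D reads, and was not called.

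The group of 6 neighbouring SNPs in intron 4, between 127262859 and 127262916, gave 299 B reads and 38 D reads, a D share of 11.3%, counted over SNPs that share reads. A read carrying the D haplotype there differs from the B reference at several bases, and the alignment allowed few mismatches. Restricted to SNPs with no listed neighbour less than 50 bp away, intronic reads were 138 B and 27 D, a D share of 16.4%, and exonic reads were 279 B and 217 D, a D share of 43.8%. On those SNPs alone the exonic minus intronic difference was 2.03 ± 0.58 (SD, n = 4), positive in 4 of 4 pools, and with at most 1 such neighbour it was 1.41 ± 0.42. The isolated exonic SNPs are the last 3 of exon 5, without exon 4, and include the last 2, which had 150 reads from each allele. Against all counted SNPs, this choice moved the exonic D share from 36.6% to 43.8% and the intronic one from 15.8% to 16.4%. The larger difference on isolated SNPs thus went mainly with the change of exonic SNPs. The part of close neighbours in the size of the difference was not tested beyond these restrictions.

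Of the 5 neighbours of Tmem159 within 500 kb that had at least 10 exonic reads, 1 was called, where the same test called 17.7% of all genes, and their median log2 D to B ratio was -0.54 against -0.02 over all genes. With 5 genes this count is near the share of all genes. Thumpd1, which helps to acetylate tRNA, had a single SNP with 248 B reads and 14 D reads, a ratio of -3.97 (standard error 0.28) and an adjusted p in edgeR of 8.2e-07. Its SNP lies 387 kb before the start of Tmem159. The D share at that SNP was 3.7% to 7.0% over the pools.

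Acsm3, a mitochondrial medium-chain acyl-CoA synthetase gene, had 553 B reads and 357 D reads over 12 SNPs, a D share of 39.2%. That share is close to the one of Tmem159, but the spread between pools was wider, and the ratio of -0.49 (standard error 0.35) had an adjusted p in edgeR of 0.42. Crym, which encodes a thyroid hormone-binding protein and is the nearest of the 5, had 36 B reads and 23 D reads and was not called. Acsm1 had 24 reads in all, and a RIKEN gene with 1 SNP at 126937831 had 33 B reads and 36 D reads. Neither was called.

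**Figure D4:**
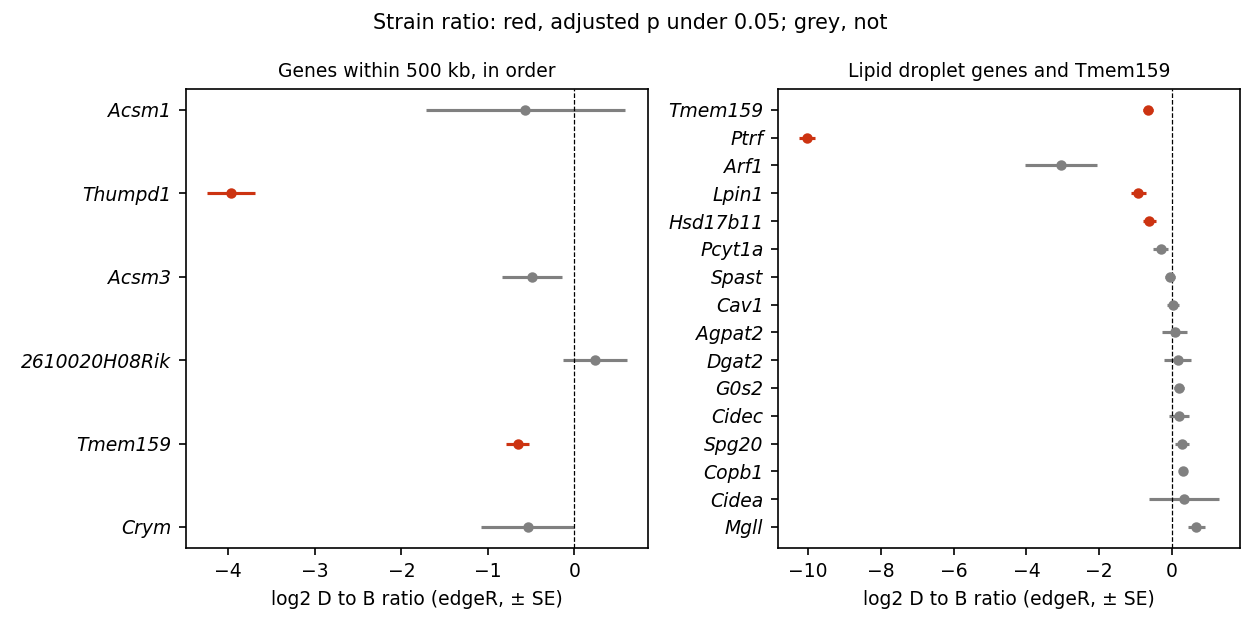
Fitted log2 D to B ratio with its standard error (x axis, edgeR) for Tmem159 and the 5 neighbouring genes in chromosomal order (left) and for Tmem159 and the 15 measured lipid droplet genes (right), in red where the adjusted p was under 0.05. On the left Tmem159 at -0.66 and Thumpd1 at -3.97 are red, and on the right Ptrf, Lpin1 and Hsd17b11 are red beside Tmem159.

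Of 38 genes listed for the formation, coating or turnover of lipid droplets, 15 had counted SNPs with reads. Among them 3 were called, all with B higher and none with D higher, near the 17.7% of all genes called (12.9% with B higher), and the median log2 D to B ratio of the 15 was 0.08 against -0.02 over all genes. Lpin1, the phosphatidate phosphatase that makes diacylglycerol, had a ratio of -0.92 (standard error 0.20, adjusted p in edgeR 0.0066). Hsd17b11, a dehydrogenase found on droplets, had a ratio of -0.61 (standard error 0.18, adjusted p in edgeR 0.039), close to that of Tmem159. Ptrf, the caveolar coat protein cavin-1, had 49396 B reads and 43 D reads over 3 SNPs at which the D base made up under 1% of reads. RNA counts alone cannot show whether D mice carry the listed D base at these SNPs. With SNPs under 1% of one allele left out (chosen after seeing the data), Ptrf dropped out. Then 2 of 14 list genes were called, Lpin1 (adjusted p in edgeR 0.015) and Hsd17b11 (adjusted p in edgeR 0.0498), beside 9.09% of all genes. The 12 genes that were not called had ratios between -3.05, for a gene with 14 reads, and 0.67. Bscl2, the seipin gene whose product binds the Tmem159 protein, and Plin1, the main droplet coat gene of adipocytes, had no counted SNP, so no allele ratio could be given for either.

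The genes whose levels over the 8 allele libraries were most like those of Tmem159 were Ncapd2, Mll2, Lemd2, Ccdc88c and Cyld, in that order. Likeness was the Euclidean distance of log2 CPM, each gene centred on its own mean, among 3093 genes with at least 500 reads. The distances were 0.34, 0.36, 0.38, 0.38 and 0.38, against a median of 1.28 over the genes compared. Their D shares of 36.5% to 38.9% follow from this choice, since both alleles entered the distance.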

How the data were processed

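The authors deposited raw allele counts per SNP for each pool, without normalization. To make these counts the authors treated read mates as single reads, aligned them to mm9 with mrsFAST and then TopHat, with D variants masked by one account in the methods, and kept unique alignments. The submitters' processing notes list TopHat with version 1, and the version of mrsFAST is not given in the sources used here. The library kit did not mark strand, so antisense reads cannot be told apart.

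Positions listed for more than 1 gene were counted once, and SNPs of an exon or intron that lay within 18 bp of the last one kept were dropped. All 39 Tmem159 SNPs had the B base as the mm9 reference base. Introns were assigned from the annotation, since the intron bounds in the files match no intron of this gene. Counts were summed per gene, exon or SNP and tested with edgeR 4.0.16 in R 4.3.3 (TMM, quasi-likelihood test, Benjamini-Hochberg adjustment over all features, threshold 0.05). Standard errors were obtained from the log2 ratio and the F statistic, as their size over the root of F. Differences within Tmem159 used exact two-sided sign permutations over pools, with 0.5 added to each sum. Alternatives were DESeq2 1.42.0, other SNP filters and count minimums, 1 library size per pool, a block for the pool, label identities and each pool left out. On simulated counts with 200 changed genes and a dispersion of 0.02, the 4-pool strain comparison (7839 genes) recovered 99% of changes of 1 on the log2 scale and 100% of changes of 2. The comparison in the 2 male pools (7685 genes) recovered 83% and 100%. The changed genes were drawn from well-covered genes, and the simulated alleles of a pool shared no pool effect. No change as small as that of Tmem159 was simulated, so these shares do not give the power for it.

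Each pool was sequenced as 1 library, and the edgeR fits of allele ratios entered its B and D counts as separate allele libraries. Without a block for the pool, their p-values measure the spread of each allele's counts between pools, not the spread of the within-pool ratio. Only the fits with the pool as a block and the sign permutations compare within pools. Fisher's exact test uses no spread between pools. B and D alleles of a pool come from the same animals and are paired by design. Their deviations from the allele means correlated, over 3094 genes, with r = 0.69 and 0.71 in the BxD and DxB female pools and 0.051 and -0.013 in the BxD and DxB male pools.

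Tmem159, the gene lists and the tests were chosen with earlier results of these data known. Genes named were Tmem159, neighbours within 500 kb with at least 10 reads, called lipid droplet genes with Bscl2 and Plin1, and the 5 genes nearest in level.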

Additional observations from a re-analysis of the deposited data

Results flagged for a closer look

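Of 15 Tmem159 values examined for a pool far from the other 3, 1 stood apart, and chance gives about 1 in 20. At the first SNP of the 3′ untranslated region, 127263989, the DxB female pool had 41 B reads and 8 D reads, a log2 D to B ratio of -2.29, while the nearest of the other pools was at -0.94. The D share was 16.3% in that pool against 34.0% to 36.7% in the other 3. The next SNP of the transcript had a D share of 34.8% in the same pool.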

How the results depend on the processing

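The strain ratio of Tmem159 kept its direction and its call under all 13 alternatives, from -0.79 to -0.53, with adjusted p-values from 4.2e-05 to 0.022 in edgeR or DESeq2, and from -0.72 to -0.62 with a pool left out. With the pool as a replicate block the ratio stayed at -0.66 and 2175 genes were called in place of 1414. The block also left the calls of the parental ratio, the sex difference and both exons as they were, changed 1 SNP call (127264118), removed the call in males (-0.60) and made one in females (-0.73). The exonic minus intronic difference (1.68, from 1.50 to 1.83 with a pool left out) passed the threshold in edgeR, at 1.66, and with the block at 1.65, where the sign test over 4 pools could not. In females the ratio became called with intronic SNPs added (-0.86), with 1 library size per pool (-0.86) and by the labels (-0.69), and in males it lost its call by the labels (-0.63). Results that were not called changed sign in 4 cases: the parental ratio (-0.14 to 0.33 with a pool left out), the exon difference (-0.18 to 0.0022 with a pool left out, and 0.23 with the first 3 SNPs of exon 5, an alternative chosen after seeing the data), and total reads by sex (-0.25) and by cross (0.11) when identities came from the labels. For the parental ratio, a left-out pool makes B and D alleles unequal between the parents, so the strain difference enters a fit without strain. Total reads changed sign by the exchange of 2 pools. The cause of the changes in the exon difference was not tested. Intronic values rest on 9 to 26 D reads a pool.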
